A study of Mus musculus with 6 samples.

Results

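miR-21 and miR-21* are the 2 mature arms cut from 1 microRNA (miRNA) hairpin, and both were followed here through small-RNA sequencing of the left ventricle of the mouse heart. They were taken by name, as the entries mmu-miR-21 and mmu-miR-21* of the deposited tables, and are 2 of the 698 mature miRNAs listed. The 6 libraries came from 3 mice heterozygous for the R719W mutation of Myh6 (genotype aMHC719/+, here R719W) and from 3 wild-type mice (WT), and the labels call them biological replicates. Myh6 encodes the α-myosin heavy chain of the adult mouse ventricle, and the series title names the mutant as a model of hypertrophic cardiomyopathy (HCM). All 6 mice, WT included, received cyclosporin, a calcineurin inhibitor, for 3 weeks. Every value below therefore compares genotypes under cyclosporin, untreated mice were not analysed here, and the labels give no age or sex.

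A miRNA hairpin is cut by Drosha and then Dicer into a short duplex, of which 1 strand, the guide, is kept in an Argonaute protein and the other, the passenger, is mostly degraded. The guide pairs with target messenger RNAs mainly through its seed, bases 2 to 8. miR-21 is the guide of its hairpin and is known for its rise in stressed and failing hearts, where fibroblasts and macrophages carry much of it. Its known targets include Spry1, a brake on growth factor signalling to ERK, and Pdcd4, an inhibitor of translation. The passenger miR-21* has been described in exosomes of cardiac fibroblasts in rodents, as a signal to cardiomyocytes. Neither the targets nor the host gene were measured in these libraries.

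The sequences of both arms are given with those of their nearest relatives, to show which other RNAs the 2 entries could hold; the seed is in capitals.
miR-21: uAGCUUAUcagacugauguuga
miR-21*: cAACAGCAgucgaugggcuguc
miR-21b: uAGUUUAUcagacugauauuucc
miR-21c: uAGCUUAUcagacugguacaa
miR-590-5p: gAGCUUAUucauaaaagugcag
Both listed arms match RefSeq (GRCm38.p6) exactly, under the names mmu-miR-21a-5p and mmu-miR-21a-3p, and no other RefSeq mature miRNA or hairpin holds either sequence. The 92-base hairpin of Mir21a lies on the minus strand at chr11:86584067-86584158, with miR-21 at chr11:86584120-86584141 and miR-21* at chr11:86584082-86584103. In GENCODE M21 the hairpin is inside exon 12 of Vmp1, a gene of autophagy, on the same strand and within the 3' untranslated part of that exon. The arms are separated by 16 loop bases, and a predicted duplex of the pair holds 19 base pairs, with no unpaired base at the 5' end of miR-21 and 1 at its 3' end. miR-21b (chromosome 3) and miR-21c (chromosome 8) are 5 edits away from miR-21 each, although miR-21c is identical over its first 14 bases and miR-21b has 1 edit there. Neither is among the 698 entries, and the treatment of reads that match more than 1 of them is not stated in the labels or headers. Within the tables miR-590-5p was the only other entry with the seed of miR-21, and it had 0 reads in all 6 libraries. No entry shared the seed of miR-21*, and none lay within 3 edits of either arm. The closest were miR-101a* at 7 edits from miR-21 and miR-497 at 8 edits from miR-21*.

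Reads on miRNAs per library numbered 865845 to 1168379 in R719W and 765425 to 1192020 in WT. Levels are TMM-normalised CPM, read counts scaled to the size of the library with a correction for a few abundant miRNAs that take a large part of it. At this depth 3 reads, the limit that a count of 0 allows, correspond to 2.40 to 3.06 CPM in R719W and 3.03 to 4.06 CPM in WT. Reads carry no molecular identifiers, so all intervals cover counting error only. The label of heart tissue held for abundant cardiomyocyte markers: miR-1 had at least 344651 reads in every library and miR-208a at least 41845. The liver miRNA miR-122 had 0 to 1 reads, the neuronal miR-124 had 0 and miR-9 had 7 to 11. Not every cardiomyocyte marker was abundant. miR-133a averaged 225 CPM in R719W and 250 CPM in WT. miR-133b had 6 reads in all of R719W and 2 in all of WT, below miR-9 at 28 in each genotype. No library pair of a genotype agreed within sampling noise (chi-square per degree of freedom 32.8 to 283).

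miR-21 rose in the R719W ventricles. It was counted 895, 1436 and 1532 times in R719W replicates 1, 2 and 3, and 248, 250 and 302 times in WT replicates 1, 2 and 3. On the TMM scale these counts gave 912, 1149 and 1445 CPM in R719W, and 336, 305 and 305 CPM in WT. All 3 R719W libraries lay above all 3 WT libraries, and the lowest R719W level was 2.72 times the highest WT level. Such a full separation with R719W higher was seen for 24.9% of the miRNAs tested. The mean level was 1169 ± 267 CPM in R719W and 315 ± 17.7 CPM in WT (SD, n = 3 each), a 3.71-fold difference (log2 fold change 1.89, SE 0.22). The edgeR quasi-likelihood test gave an adjusted p of 4.02e-04 (Benjamini-Hochberg, over the 181 miRNAs tested). This p was the third smallest of all, and the log2 fold change was the fifth largest.

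The spread of miR-21 was wider in R719W than counting error alone gives. The 95% counting intervals of the R719W libraries, 853 to 973, 1090 to 1210 and 1374 to 1520 CPM, did not overlap each other. Those of the WT libraries, 295 to 380, 268 to 345 and 272 to 342 CPM, all did. The chi-square per degree of freedom among libraries, near 1 where counting error is all there is, was 62.4 in R719W and 0.781 in WT. R719W replicate 1 held the lowest miR-21 of the mutants and replicate 3 the highest. No fit that left out a single library lost the call, with log2 fold changes of 1.67 to 1.99 and edgeR adjusted p of 1.97e-09 to 0.00919.

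**Figure D1:**
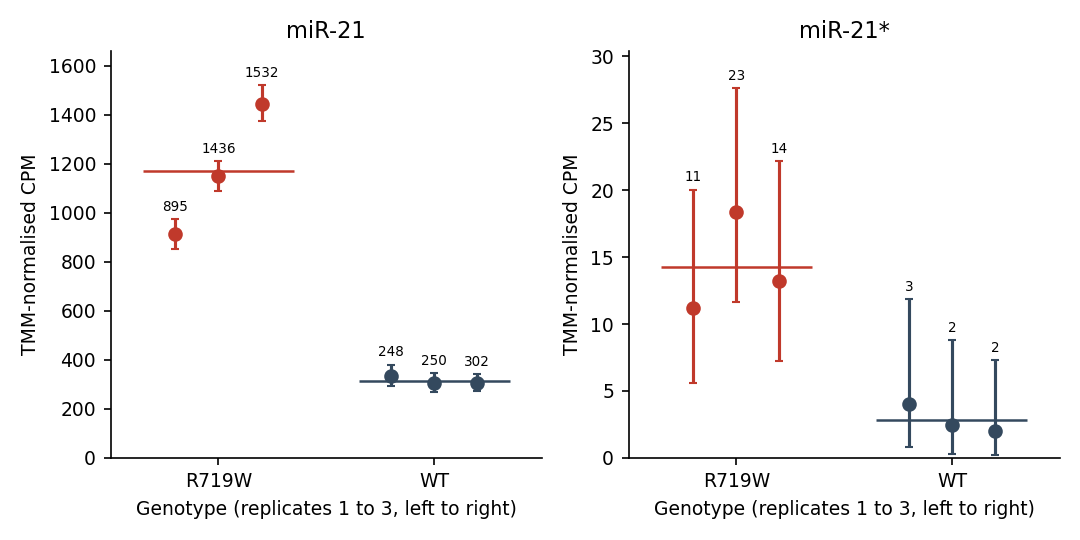
TMM-normalised CPM of miR-21 (left) and miR-21* (right) in each library, R719W left of WT, with the 95% Poisson interval of the read count as error bar, the read count above each point and the genotype mean as a horizontal line. The R719W libraries sit at 912 to 1445 CPM for miR-21 and 11.2 to 18.4 CPM for miR-21*, against 305 to 336 and 2.02 to 4.06 CPM in WT, and the counting intervals are wide only for miR-21*.

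miR-21*, the passenger arm, rose as well, at a level near the limit of detection in WT. Its counts were 11, 23 and 14 reads in R719W replicates 1, 2 and 3, and 3, 2 and 2 reads in the WT replicates. Those counts correspond to 11.2, 18.4 and 13.2 CPM in R719W and to 4.06, 2.44 and 2.02 CPM in WT. The genotypes did not overlap, and the lowest R719W level was 2.76 times the highest WT level. A full separation with R719W higher held for 24.9% of the miRNAs tested, and miR-21* was tested only through its R719W libraries. With all reads of a genotype summed, 48 in R719W and 7 in WT, the ratio per effective read was 5.31, with a 95% counting interval of 2.39 to 13.9. The mean was 14.3 ± 3.71 CPM in R719W and 2.84 ± 1.08 CPM in WT (SD, n = 3 each; log2 fold change 2.34, SE 0.46), with an edgeR adjusted p of 0.0137. Within each genotype the spread of miR-21* stayed near counting error, at a chi-square per degree of freedom of 1.08 in R719W and 0.341 in WT. With so few reads a wider spread could hardly show. The SD of miR-21* was 26.0% of its mean in R719W and 37.9% in WT, against 22.9% and 5.60% for miR-21.

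The test of miR-21* rests on few reads. A miRNA was tested when at least 3 libraries reached 10.5 of the deposited CPM. miR-21* met that through the R719W libraries alone, at 10.6, 19.7 and 16.2 CPM, against 1.68 to 3.67 CPM in WT, so that it entered the test only by being higher in R719W. Among all 387 miRNAs with any read, without that filter, miR-21* passed at an edgeR adjusted p of 0.00165. The call was lost without WT replicate 1 (edgeR adjusted p = 0.0678) and without WT replicate 3 (edgeR adjusted p = 0.0817), and without R719W replicate 2 miR-21* fell short of the filter. The log2 fold change is also set by the small number added to low values: it was 1.78 with a prior count of 2 in edgeR, a setting chosen after seeing the data, and 0.998 on log2(CPM + 10) in limma, a pseudocount above every WT level.

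Both calls are read against the whole table. Of the 181 miRNAs tested 19.9% were called by edgeR, 12.7% higher in R719W (23 miRNAs) and 7.18% lower (13 miRNAs). The split of calls moved with the scaling, to 12 higher against 15 lower under the size factors of DESeq2, 34 against 3 under library totals alone, and 28 against 2 in limma on log2(CPM + 1). Those scalings shifted the log2 fold change of the median miRNA by −0.11, 0.21 and 0.19. miR-21 was higher in R719W under each, with log2 fold changes of 1.78, 2.13 and 2.07, and so was miR-21*, with 2.23, 2.55 and 2.17.

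**Figure D2:**
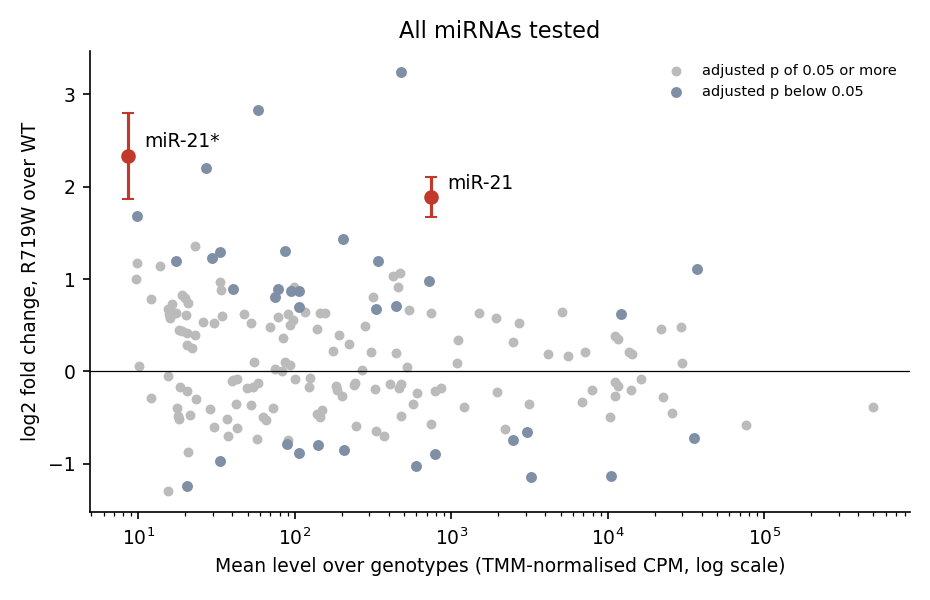
Log2 fold change, R719W over WT, against the mean level over both genotypes (TMM-normalised CPM, log scale) for the 181 miRNAs tested, with the arms of miR-21 in red and their standard errors as bars. miR-21* is at the lowest mean level of all and miR-21 at place 45, and both lie above nearly all other points, at log2 fold changes of 2.34 and 1.89.

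The share of all miRNA reads is the read count over the library's total, without the TMM correction. Library totals alone shifted the log2 fold change of the median miRNA by 0.21 from TMM, and the shares carry that shift. miR-21 took 0.0866%, 0.123% and 0.177% of the reads in R719W replicates 1, 2 and 3, and 0.0303%, 0.0327% and 0.0253% in the WT replicates. The mean share was 0.129% ± 0.0454 in R719W and 0.0294% ± 0.00374 in WT (SD, n = 3 each), and the genotypes did not overlap (exact permutation test, two-sided, p = 0.1, with 0.2 adjusted over the 2 shares tested; no p below 0.1 is possible with 3 libraries a side). miR-21* took 0.00155% ± 4.55e-04 in R719W and 2.65e-04% ± 9.96e-05 in WT (SD, n = 3 each). Ordered by reads within a library, miR-21 stood at places 45, 39 and 37 of the listed miRNAs in R719W, and at 60, 63 and 62 in WT. miR-21* stood at places 179, 163 and 172 in R719W, and at 205, 228 and 225 in WT.

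Levels of different miRNAs also depend on how each sequence is ligated and amplified, so the order is only approximate. In mean level over both genotypes, miR-21 was at place 45 of the 181 tested. miR-1937b (726 ± 160 CPM in R719W and 840 ± 344 CPM in WT) and miR-30a* (597 ± 99.2 CPM in R719W and 887 ± 82.4 CPM in WT) stood just above it. miR-142-3p (899 ± 192 CPM in R719W and 578 ± 68.8 CPM in WT) and miR-125a-5p (954 ± 291 CPM in R719W and 485 ± 51.8 CPM in WT) stood just below (SD, n = 3 each). In R719W the mean of miR-21 was above all 4 of these neighbours, though the means of miR-125a-5p and miR-142-3p lay within about 1 SD of it. In WT it was below all 4 by more than their SD. miR-21* was last of the 181, after miR-541 (15.03 ± 6.66 CPM in R719W and 4.55 ± 1.70 CPM in WT) and miR-1983 (12.7 ± 2.08 CPM in R719W and 6.49 ± 2.16 CPM in WT), neither of which differed from it in R719W by more than their SD.

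Within the hairpin, the passenger stayed a small part of the reads in both genotypes. miR-21* made up 1.21%, 1.58% and 0.906% of the reads of both arms in R719W replicates 1, 2 and 3, and 1.195%, 0.794% and 0.658% in the WT replicates. The libraries of the genotypes overlapped, since WT replicate 1 was above R719W replicate 3. The mean was 1.23% ± 0.336 in R719W and 0.882% ± 0.279 in WT (SD, n = 3 each), a difference of 0.35 percentage points that did not pass (exact permutation test, two-sided, p = 0.2, and 0.2 adjusted over the 2 shares tested). From the summed reads, 48 of 3911 in R719W and 7 of 807 in WT, the shares were 1.23% (95% Clopper-Pearson interval 0.906% to 1.62%) and 0.867% (0.349% to 1.78%). A change in arm use was thus not detectable at this depth, and these intervals do not show that the arm use was equal. There were 62.4 to 109 reads of miR-21 for each read of miR-21* in R719W, and 82.7 to 151 in WT.

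Other hairpins with both arms measured give a scale for these values. The tables list 165 pairs of arms by name, of which 21 had both arms tested. In 16 of the 21 pairs both arms had a log2 fold change of the same sign, and in 8 both were positive. Both arms were called in 4 pairs: miR-21 and miR-99b had both arms higher in R719W, and miR-30e and miR-378 both lower. In 14 pairs neither arm was called, and in 3 pairs 1 arm was. Of all 181 miRNAs tested, 12.7% were called higher and 7.18% lower, and 99 had a positive log2 fold change. The sum of the log2 fold changes of the arms was largest for miR-21. Because miR-21* entered the 21 pairs only through its R719W libraries, neither this place nor its call among the pairs adds support for its rise. The passenger's log2 fold change exceeded the guide's by 0.45, within the range over the 21 pairs of −0.81 to 1.26 (median size 0.36). That excess turned with the treatment of low values: the passenger's was 0.998 against the guide's 2.04 on log2(CPM + 10) in limma, and 1.78 against 1.88 with a prior count of 2 in edgeR. In WT the smaller arm took a median of 4.66% of its pair's reads, and the 0.882% of miR-21* was the fifth lowest share. The smaller arms that gained most share in R719W were miR-339-3p (47.0% in R719W and 29.1% in WT), miR-17* (10.6% and 5.26%) and miR-30e* (22.3% and 19.5%). Those that lost most were let-7d* (4.48% in R719W and 7.07% in WT), miR-140* (37.9% and 39.5%) and miR-28* (3.85% and 5.26%).

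**Figure D3:**
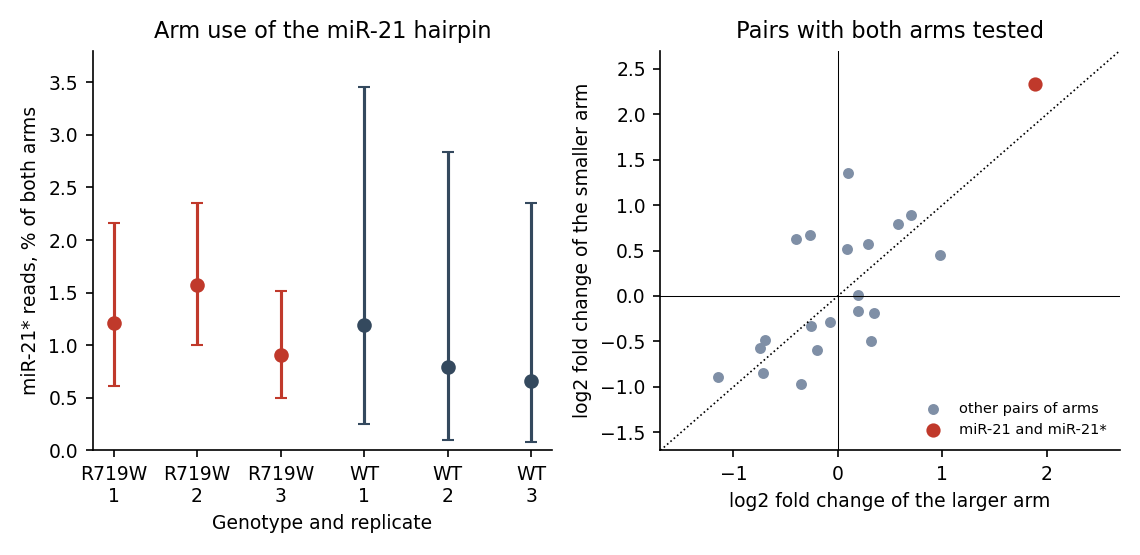
Left, miR-21* reads as a percentage of the reads of both arms in each library, R719W before WT, with 95% Clopper-Pearson intervals. Right, log2 fold change (R719W over WT) of the smaller arm against that of the larger arm for the 21 pairs with both arms tested, with equality as a dotted line. The shares of 0.906% to 1.58% in R719W and 0.658% to 1.195% in WT have overlapping intervals, and miR-21 with miR-21* lies at the upper right of all pairs.

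The miRNA whose profile over the 6 libraries was closest to that of miR-21 was miR-21*. Likeness was the root-mean-square distance between log2 levels, each profile centred on its own mean, so it counts the size of the changes as well as their direction. The log2 levels carried a prior count of 2, which draws low values such as those of miR-21* closer together. In edgeR a prior count of 2 gave miR-21* a log2 fold change of 1.78, against 2.34 in the main fit. The distances and the place of miR-21* thus depend in part on this setting. The distance between the arms was 0.263 on the log2 scale, against a median of 0.964 between miR-21 and all others tested, and miR-21 was in turn the closest to miR-21*. Both profiles share the libraries and the genotype difference, so the distance is a description. The arms differed most in R719W replicate 3, where miR-21 was 1.26 above its mean and miR-21* 0.79, and in WT replicate 1, where they were at −0.84 and −0.52. After miR-21* the closest to miR-21 were miR-674 (distance 0.350), miR-199a-5p (0.440), miR-500 (0.444) and miR-423-5p (0.453). miR-674 averaged 295 ± 35.4 CPM in R719W and 109 ± 5.42 CPM in WT (SD, n = 3 each). The closest to miR-21* after miR-21 were miR-674 (0.384), miR-411 (0.431), miR-500 (0.444) and miR-423-5p (0.478). Each of these 5 was called higher in R719W by edgeR, at log2 fold changes of 1.19 to 2.83, where 12.7% of all miRNAs tested were. The distance counts the genotype difference itself, so these calls follow from how the 5 were chosen and are no separate result.

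**Figure D4:**
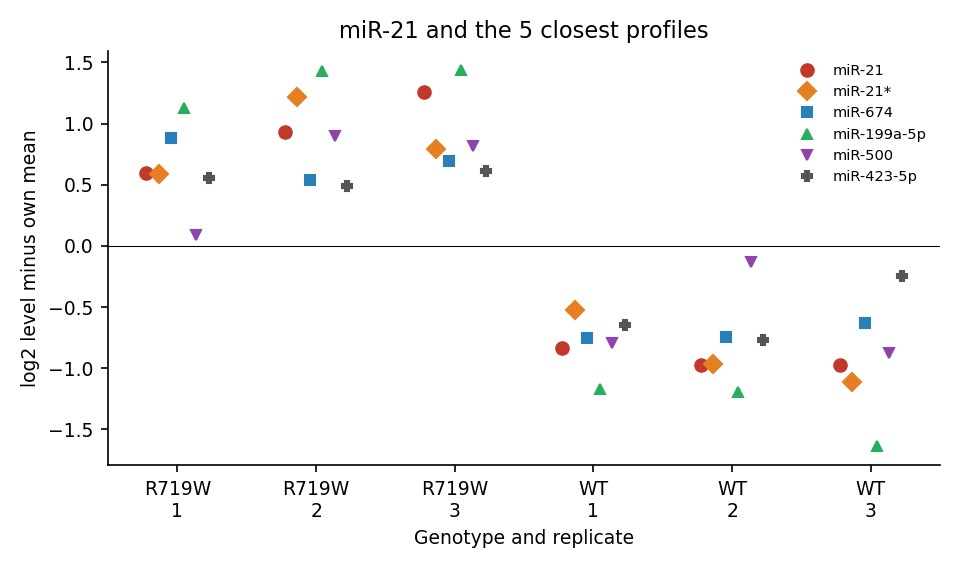
Log2 level of miR-21 and of its 5 closest miRNAs in each library, minus each miRNA's own mean over the 6 libraries, with R719W left of WT and 1 marker shape per miRNA. All points of the R719W libraries lie above 0 and all points of the WT libraries below it, with miR-21* nearest to miR-21. The log2 levels carried a prior count of 2.

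miR-21 is 1 of a set of miRNAs known to be raised in stressed hearts, and the others of that set were tested in the same fit. Without the miR-21 arms, the list had 22 entries, of which 17 were tested, 5 rose and 12 did not pass, where 12.7% of all miRNAs tested were called higher. Of the 17, 15 had a positive log2 fold change (99 of all 181), and the median was 0.63, against 0.10 over all 181. Among the positive entries, miR-24-1*, miR-24-2* and miR-27a* are passenger arms by name. They were taken in with their hairpins, and the known rise is not attributed to them. Under the size factors of DESeq2 13 of the 17 were positive (89 of all 181) and 2 rose (12 of all 181). Under library totals alone 16 were positive (125 of all 181) and 9 rose (34 of all 181). When totals left out the 5 most abundant miRNAs, 3 rose (14 of all 181). The 5 were miR-214, miR-199a-5p, miR-132, the entry shared by miR-199b and miR-199a-3p, and miR-23b, and their log2 fold changes were 3.25, 2.83, 1.30, 0.87 and 0.62, in that order (SE 0.19 to 0.36). miR-214 and miR-199a-5p come from a transcript of activated fibroblasts, and miR-132 is known to promote growth of cardiomyocytes. Only miR-214 and miR-199a-5p of these had a larger log2 fold change than miR-21. miR-125b-5p (30973 ± 3250 CPM in R719W and 29012.5 ± 1737 CPM in WT, SD, n = 3 each) and miR-23a (log2 fold change 0.39, SE 0.21), abundant entries of the list, did not pass. miR-155, an inflammatory miRNA, had a log2 fold change of −0.52 (SE 0.26) and miR-34a, of senescent hearts, −0.07 (SE 0.26).

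The opposite list holds miRNAs known to restrain collagen or connective tissue growth factor, the miR-29, miR-30 and miR-133 families. It had 19 entries, of which 15 were tested, 4 fell and 11 did not pass, where 7.18% of all miRNAs tested were called lower. All 15 log2 fold changes were negative relative to TMM (82 of all 181). Under library totals alone miR-29a, miR-29b, miR-30d and miR-133a turned positive, and 1 entry of the list fell, miR-30e (3 of all 181 fell). With totals without the 5 most abundant miRNAs 2 entries fell, miR-30e and miR-30e* (6 of all 181 fell). Under the size factors of DESeq2 all 15 were negative (92 of all 181) and 5 fell (15 of all 181). The TMM values had a median of −0.57, against 0.10 over all miRNAs tested. The entries that fell were miR-30e, miR-30e*, miR-30c-2* and miR-30a, at log2 fold changes of −1.15, −0.90, −0.88 and −0.75, in that order (SE 0.18 to 0.28). Of these 4, miR-30e* and miR-30c-2* are passenger arms, to which the family's known role is not attributed. miR-29a and miR-29b, the most abundant of the rest, had log2 fold changes of −0.08 (SE 0.25) and −0.16 (SE 0.20) and did not pass.

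Markers of the cell types known to carry miR-21 were summed and tested as well. In bulk tissue, more cells of a type and more miRNA per cell cannot be told apart. All 5 fibroblast entries had reads, although miR-214* had none in WT, and their summed level was 1010 to 1380 CPM in R719W and 192 to 225 CPM in WT. The largest of these entries was miR-214, at a mean of 870 CPM in R719W and 92.1 CPM in WT. Of the 4 fibroblast entries tested, 3 rose and miR-199b* did not pass, where 12.7% of all miRNAs were called higher. Under the size factors of DESeq2 or with totals without the 5 most abundant miRNAs 2 rose, and under library totals alone all 4 did. Of the 8 leukocyte entries 7 had reads, miR-150* being at 0 throughout, and their summed level was 1120 to 1497 CPM in R719W and 907 to 1044 CPM in WT. The largest of the leukocyte entries was miR-142-3p, at a mean of 899 CPM in R719W and 578 CPM in WT, so the sum mostly follows it. Of the 6 tested 2 fell, miR-150 and miR-342-3p, both of lymphocytes, and 4 did not pass, where 7.18% of all miRNAs were called lower. Under library totals alone (3 of all 181 fell), and when totals left out the 5 most abundant (6 of all 181), miR-342-3p alone of the 6 fell. Among the 4 that did not pass were miR-142-3p, carried by blood cells at large, and miR-223, of myeloid cells. Their log2 fold changes were 0.64 (SE 0.21) and 0.56 (SE 0.23), with edgeR adjusted p of 0.0625 and 0.102. The other 2 went in opposite directions, miR-146a at 0.62 (SE 0.36) and miR-155 at −0.52 (SE 0.26). Cardiomyocyte entries summed to 398351 to 547475 CPM in R719W and to 523751 to 786677 CPM in WT. Most of that was miR-1, at a mean of 427773 CPM in R719W and 557754 CPM in WT. Of the 5 tested 1 fell, miR-499, where 7.18% of all miRNAs were called lower. Only miR-208b had a positive log2 fold change (0.67, SE 0.32). Under library totals alone 1 of the 5 was called higher (34 of all 181), and miR-499 was again called lower (3 of all 181). The part of any of these cell types in the rise of miR-21 was not tested.

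Ratios within a library set miR-21 beside single markers without any scaling. For every 100 reads of miR-214 there were 135 ± 23.8 reads of miR-21 in R719W and 363 ± 91.5 in WT (SD, n = 3 each). For every 100 reads of miR-199a-5p there were 1139 ± 158 reads of miR-21 in R719W and 2245 ± 439 in WT. Relative to these 2 fibroblast miRNAs, which had the largest rises of their list, miR-21 was thus lower in R719W. The other 2 fibroblast entries tested had smaller log2 fold changes than the 1.89 of miR-21, at 0.87 for the entry of miR-199b and miR-199a-3p and 0.97 for miR-199b*. Relative to miR-142-3p and miR-223, 2 leukocyte miRNAs with positive log2 fold changes, miR-21 was higher in R719W. For every 100 reads of miR-142-3p there were 136 ± 48.5 reads of miR-21 in R719W and 55.0 ± 6.47 in WT. For every 100 of miR-223 there were 1046 ± 385 in R719W and 399 ± 27.02 in WT. No ratio was taken to the leukocyte miRNAs with negative log2 fold changes. Against miR-1, the main miRNA of the cardiomyocyte, there were 0.292 ± 0.136 reads of miR-21 in R719W and 0.0580 ± 0.0116 in WT for every 100. The genotypes did not overlap in any of these 5 ratios (exact permutation test, two-sided, p = 0.1 for each, which is the lowest possible here, and 0.1 adjusted over the 5). The 5 partners were chosen after their values were seen.

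Direction and size of both arms were then followed over the alternative analyses. miR-21 kept its call in all 16 of them, with log2 fold changes of 1.67 to 2.13. miR-21* was tested in 14 and called in 12, at log2 fold changes of 0.998 to 2.56. The prior count of 2 is not among these, since it changes the fold change of an edgeR fit and leaves its p as it was. In all of the 14 but the fit without a filter on low counts, miR-21* was tested only through its R719W libraries. The number of its calls thus adds no support for its rise.

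**Figure D5:**
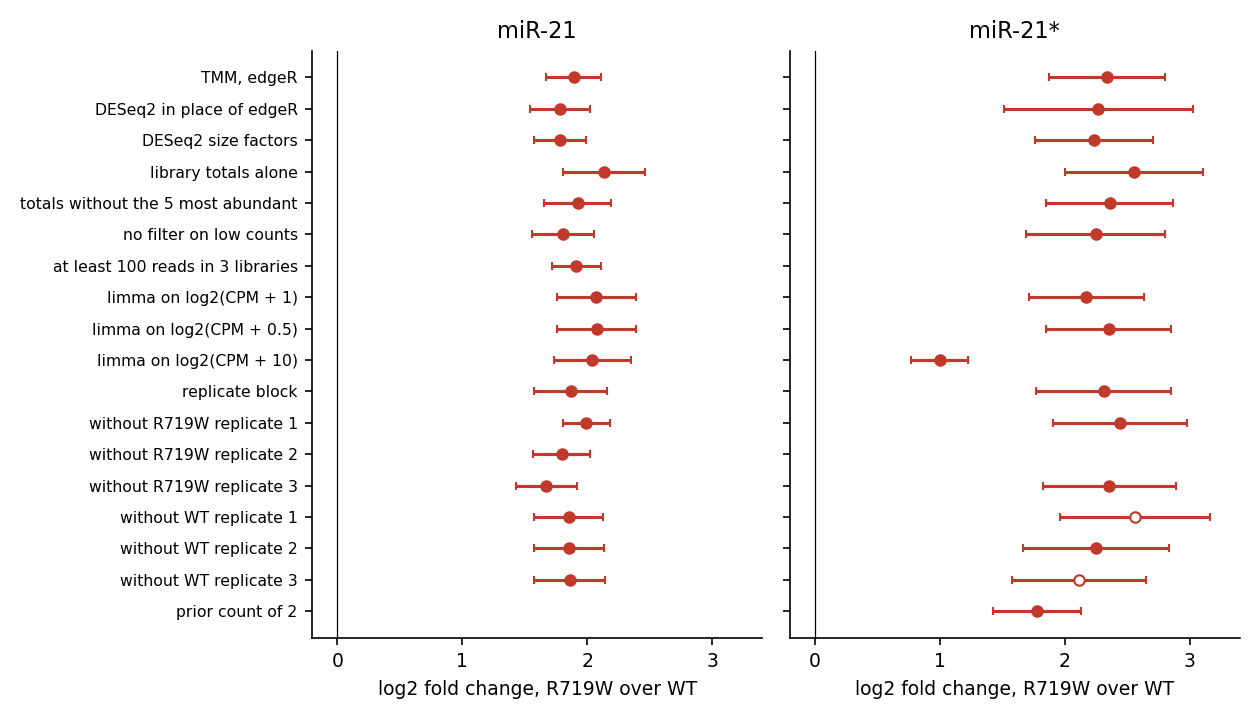
Log2 fold change, R719W over WT, of miR-21 (left) and miR-21* (right) under each analysis, with the standard error as bars and a filled point where the adjusted p was below 0.05. All points for miR-21 are filled, between 1.67 and 2.13, and the open points for miR-21* are the fits without WT replicate 1 and without WT replicate 3. The point for a prior count of 2 has the p of the edgeR fit itself. A missing point means that the arm was below the filter or that the setting was tried for miR-21* alone.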

How the data were processed

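The authors deposited 2 tables, 1 per genotype, with the same 698 miRNA names and sequences. Per the file headers, each library has a column of reads, whole-number counts without normalization, and a column of normalized values. The authors' normalized value is CPM: the read count over the library's total on listed miRNAs (largest relative gap 4.6e-15). Per the labels' protocols, RNA was isolated with a kit that keeps small RNAs and the libraries were multiplexed. The sources used here give no aligner, mismatch setting or miRNA release. Columns were matched to samples by barcode.

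Counts were fitted over the whole table in edgeR 4.0.16 (R 4.3.3): filterByExpr (minimum count 10, total 15), TMM, glmQLFit and glmQLFTest, two-sided, on genotype. The filter kept 181 miRNAs holding at least 99.9% of each library's reads, and calls are at a Benjamini-Hochberg adjusted p below 0.05. SE is the absolute log2 fold change over the square root of F. Alternatives used DESeq2 1.42.0, limma 3.58.1 on the deposited CPM plus 1, 0.5 or 10, other scalings and filters, a replicate block and leaving out each library. Shares were compared with SciPy 1.17.1, and the duplex was predicted with ViennaRNA 2.7.2. Sequences are from RefSeq (GRCm38.p6) and the deposited tables (miR-590-5p, with T written as U).

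Members, lists and tests were chosen with earlier results of these data known. Named beside the arms were the 5 miRNAs of most similar profile to each, their neighbours in level, shared seeds, the 3 pairs of arms gaining and losing most, and called or abundant list entries.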

Additional observations from a re-analysis of the deposited data

How the results depend on the processing

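miR-21 kept its direction and its call under the 10 other settings (log2 fold change 1.78 to 2.13) and without each library (1.67 to 1.99). miR-21* did so under 9 settings (0.998 to 2.55; a prior count of 2 gave 1.78, with p as it was), and without single libraries it ranged from 2.11 to 2.56, losing the call without WT replicate 1 or 3. It could not be tested without R719W replicate 2 or with at least 100 reads in 3 libraries. Except in the fit without a filter on low counts, miR-21* was tested only through its R719W libraries. The number of miRNAs called, 36, became 20 with totals without the 5 most abundant, 22 with at least 100 reads in 3 libraries, and 4 to 56 without single libraries (4 without WT replicate 1 or 3, 7 without R719W replicate 3, 20 without WT replicate 2, 56 without R719W replicate 1). The cause was not tested, except that the stricter filter leaves 101 miRNAs. The difference in share of miRNA reads stayed positive, at 0.0753 to 0.120 percentage points without single libraries. That in arm share stayed positive too, at 0.18 (without R719W replicate 2) to 0.51 points (without R719W replicate 3), and its exact permutation p was 0.2 to 0.5 throughout.

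No pairing by replicate number was seen. Deviations of same-numbered libraries correlated at −0.19, −0.39 and 0.01, and none of the 3 R719W libraries correlated best with its own number. With so few libraries these correlations cannot exclude a pairing. With the replicate block the log2 fold changes were 1.87 for miR-21 and 2.31 for miR-21*, 30 miRNAs were called, and the differences in share were 0.0994 and 0.35 points. Depth limits miR-21* most, at 2 to 3 reads in each WT library.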
